A study of Mus musculus with 9 samples.

Results

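Genes of DNA replication were examined in RNA from group 2 innate lymphoid cells (ILC2s), lymphocytes of tissues that carry no rearranged antigen receptor and make type 2 cytokines. The 42 genes encode proteins that mark replication origins, load and switch on the replicative helicase, copy DNA and restore chromatin behind the fork, and were chosen by symbol from the 20732 genes of the count table, in which all 42 were found. Pancreata of C57BL6/J mice were the source, and the sorted cells were live CD45+ CD3- B220- lineage-negative KLRG1+ cells. One group of mice was given IL-33, an alarmin of the IL-1 family that acts on ILC2s through its receptor ST2, at 200 ng on day 0 and again on day 1, and the other was given PBS on the same days. Pancreata of both groups were taken on day 5. The sample titles give 5 libraries of the IL-33 group and 4 of the PBS group, whose libraries they call naive. The design text of the series gives 4 IL-33 and 5 PBS mice, and the sample titles were followed. Whether each library came from a separate mouse is not in the labels, and a p-value here is set by library-to-library spread, which may be technical.

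Replication starts at origins bound by the origin recognition complex (ORC). In G1, Cdc6 and Cdt1 load the helicase made of Mcm2 to Mcm7 onto DNA, and geminin, encoded by Gmnn, blocks Cdt1 so that origins are not loaded again in the same cycle. In S phase the kinase of Cdc7 and Dbf4, with Mcm10, Cdc45 and the GINS complex, turns the loaded helicase on, and DNA polymerases follow with the sliding clamp PCNA. Many of these genes are known targets of E2F transcription factors and are transcribed as cells leave quiescence.

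Total counts were 14216976 to 21020023 per library. Values are CPM, counts relative to library size scaled by the trimmed mean of M-values (TMM), unless a sentence says otherwise. The ILC2 markers were present, with Gata3, the lineage factor, at 2988 to 6803 CPM in IL-33 and 3751 to 5125 CPM in PBS libraries and Il1rl1, which encodes ST2, at 622 to 1057 and 967 to 1428 CPM. Of 10 ILC2 markers listed, 3 rose and 1 fell (edgeR adjusted p below 0.05), beside 13.7% and 11.6% of genes tested. Gata3 and Il1rl1 were not among them. Acinar markers, RNA of the enzyme-secreting pancreas cells, took 0.273% to 8.91% of counts in IL-33 libraries and 0.0971% to 31.6% in PBS libraries, with the highest share in PBS replicate 4, whose TMM factor was 0.532. The alpha-globin gene Hba-a1 and the summed mast cell and basophil markers were higher in every IL-33 library than in any PBS library, while Hbb-bs and Alas2 overlapped between the groups. Hba-a1 was at 199.98 to 1154 CPM in IL-33 and 87.04 to 175 CPM in PBS libraries, and Alas2, the heme synthesis enzyme of red cell precursors, was at 0 to 10.1 CPM in IL-33 and at 0 in PBS libraries. The 2 mast cell and basophil markers measured here, of 5 listed, summed to 94.2 to 357 CPM in IL-33 and 15.4 to 45.8 CPM in PBS libraries. The beta-globin gene Hbb-bs was at 449, 218, 776, 1.52 and 0.577 CPM in IL-33 replicates 1 to 5 and at 0 to 0.861 CPM in PBS libraries. Summed over the 42 replication genes, the same IL-33 libraries held 2656, 4052, 2508, 3292 and 3504 CPM. Cpa3, a mast cell protease, was highest in IL-33 replicate 3, at 345 CPM. The part of red cell, mast cell or basophil RNA in the results was not tested. B cell markers moved in both directions, with Cd79b at 57.9 to 99.0 CPM in IL-33 and 2.39 to 24.3 CPM in PBS libraries (edgeR adjusted p = 0.015) and Ighm at 105 to 306 CPM in IL-33 and 413 to 553 CPM in PBS libraries (edgeR adjusted p = 0.0048), while Cd79a and Ms4a1 were at most 1.77 CPM in any library. Their part was not tested either. T cell markers were mixed, with Cd3e, Cd3d and Trac at most 9.32 CPM in any library while Cd3g and Trbc2 were at 221 CPM or more in all.

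Replication genes were higher in ILC2s of IL-33-treated mice. Of the 42 genes, all of which passed the filter on low counts, 31 rose and 0 fell by edgeR's quasi-likelihood test with an adjusted p below 0.05, where 25.2% of the 14405 genes tested passed, 13.7% rising and 11.6% falling. No gene fell by DESeq2 or limma voom or at an unadjusted p below 0.05. The median log2 change of the 42 genes was 1.53, against -0.05 over all genes tested. Of the 42 genes, 30 both passed the test and rose at least 2-fold, as did 7.68% of genes tested. The libraries of the groups did not overlap, with IL-33 higher, for 32 of the 42 genes and for 15.3% of genes tested. The 11 genes that did not pass the test were Orc1, Cdt1, Gins3, Cdc7, Pola2, Pold1, Pole, Pole2, Rfc1, Rpa3 and Chaf1b. Leaving out 1 library at a time left 29 to 32 genes called higher, beside 9.94% to 13.2% of genes tested. Without IL-33 replicates 1, 2 and 3, the libraries rich in beta-globin, 19 were called, beside 4.75% of genes tested. In that fit, which had fewer libraries, the median log2 change of the 42 genes was 1.68 and all 42 were positive.

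**Figure D1:**
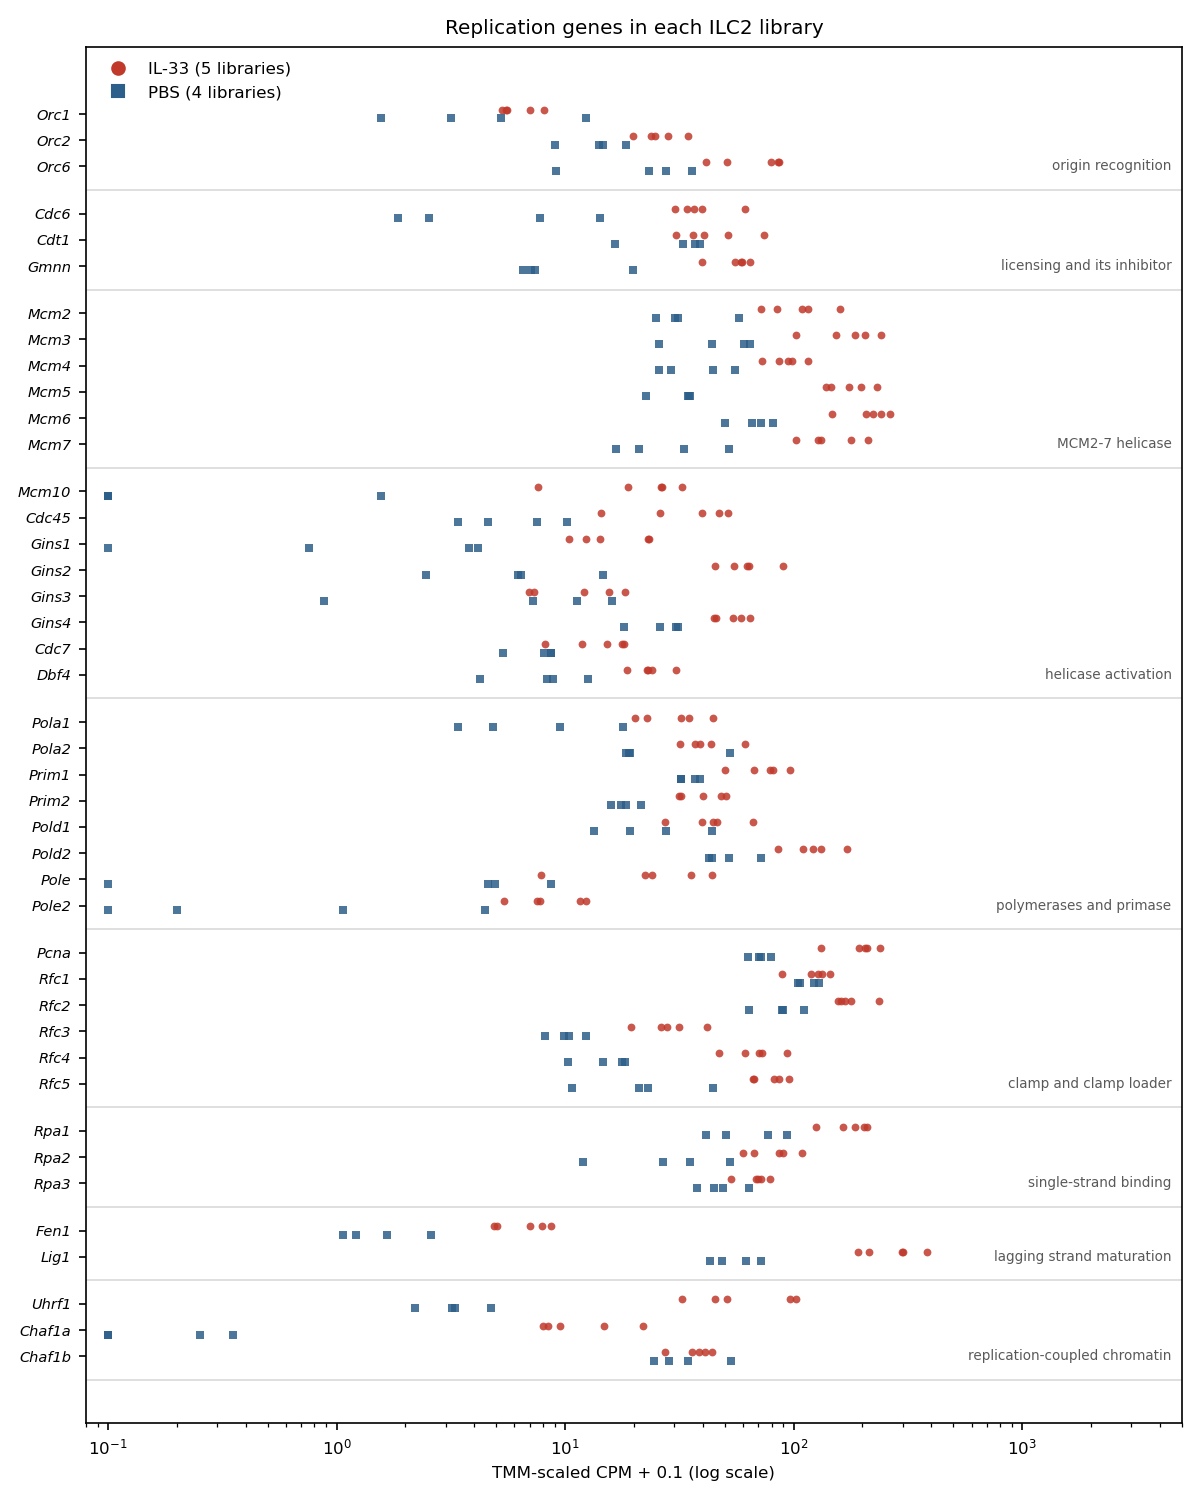
TMM-scaled CPM plus 0.1 (horizontal log axis) of each of the 42 replication genes (rows, grouped by role) in every library, with IL-33 libraries as circles and PBS libraries as squares. The circles lie to the right of all squares for 32 genes, and overlap them for the other 10, among them Orc1, Cdt1, Gins3, Rfc1 and Chaf1b.

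In sum over the 42 genes, the IL-33 libraries held 2508 to 4052 CPM and the PBS libraries 1036 to 1239.99 CPM. Mcm2 to Mcm7 alone gave 676 to 1223 CPM in IL-33 and 230.1 to 266 CPM in PBS libraries. The IL-33 libraries were not alike: IL-33 replicate 2 had the highest value of its group for 26 of the 42 genes, while IL-33 replicate 3 had the lowest for 23 and IL-33 replicate 1 for 13. The PBS libraries shared the highest values more evenly, with 7 to 14 genes each. In bulk RNA, more cells that carry these transcripts and more transcripts per cell cannot be told apart.

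**Figure D2:**
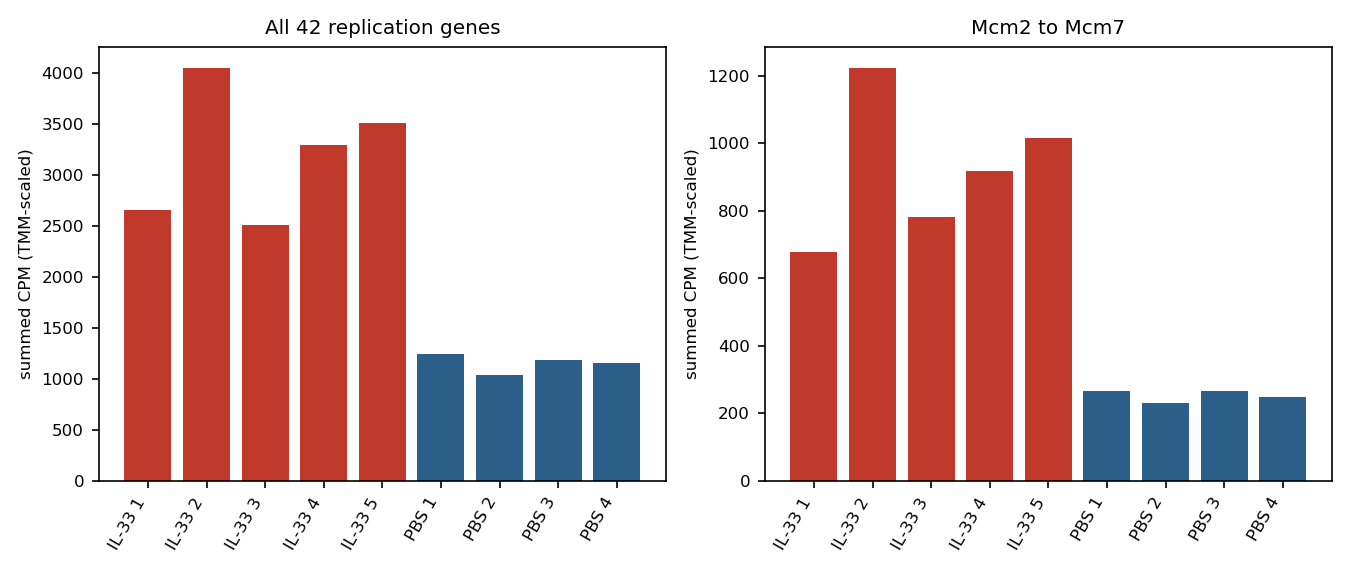
Summed TMM-scaled CPM of the 42 replication genes (left) and of Mcm2 to Mcm7 (right) in each library, IL-33 replicates 1 to 5 and then PBS replicates 1 to 4. All IL-33 libraries stand above all PBS libraries, with IL-33 replicate 2 highest in both panels.

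The promoters of the 42 genes, called or not, were read for E2F-type letters. Of the 42 genes, 34 had a promoter window in the RefSeq table (GRCm38.p6), which runs from 250 bases before to 50 bases after a start site. The windows were searched on both strands for TTTCGCGC and TTTGGCGC, which can overlap on opposite strands. A window of 11 of the 34 genes (32.4%) held a match, against 0.929% of 27025 genes with a window and 1.81% of those tested here. Of genes called higher 8 of 24 held one, and of genes not called 3 of 10 (Cdt1, Orc1 and Pole2). CCAAT, also searched on both strands, was in a window of 22 of the 34 genes (64.7%). It was in 43.1% of genes tested and 41.1% of all genes with a window. TTTGAA, the letters of the cell cycle element named CHR, was in 20.6% of the 34 genes. Of genes tested 15.0% held it, and of all genes with a window 20.2%. A match is a description of the letters and not a measured site. The windows shown are those of helicase genes with a match, of the clamp loader gene Rfc3, and of Orc1 and Cdt1, which held a match without passing the test. Capitals mark the matches.
Mcm5 (chr8:75109259-75109558, plus strand): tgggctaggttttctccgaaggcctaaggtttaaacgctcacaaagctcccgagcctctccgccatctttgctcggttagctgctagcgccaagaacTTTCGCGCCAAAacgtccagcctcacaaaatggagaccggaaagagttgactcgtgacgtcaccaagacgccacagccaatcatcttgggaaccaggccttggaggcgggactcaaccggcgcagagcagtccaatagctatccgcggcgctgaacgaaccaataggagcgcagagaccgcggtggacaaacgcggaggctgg
Mcm6 (chr1:128359656-128359955, minus strand): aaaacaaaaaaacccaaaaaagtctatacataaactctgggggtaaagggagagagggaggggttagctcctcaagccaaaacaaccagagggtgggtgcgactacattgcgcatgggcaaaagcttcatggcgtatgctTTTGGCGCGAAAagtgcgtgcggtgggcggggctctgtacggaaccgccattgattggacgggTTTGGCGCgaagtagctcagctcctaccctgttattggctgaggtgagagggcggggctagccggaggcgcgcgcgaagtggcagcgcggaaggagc
Mcm7 (chr5:138171834-138172133, minus strand): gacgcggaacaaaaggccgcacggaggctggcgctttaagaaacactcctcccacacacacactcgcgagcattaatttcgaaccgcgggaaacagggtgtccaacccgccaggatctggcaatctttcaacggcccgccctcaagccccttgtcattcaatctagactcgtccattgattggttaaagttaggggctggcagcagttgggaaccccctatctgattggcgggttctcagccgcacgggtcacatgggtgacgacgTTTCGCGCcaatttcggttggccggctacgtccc
Mcm3 (chr1:20820263-20820562, minus strand): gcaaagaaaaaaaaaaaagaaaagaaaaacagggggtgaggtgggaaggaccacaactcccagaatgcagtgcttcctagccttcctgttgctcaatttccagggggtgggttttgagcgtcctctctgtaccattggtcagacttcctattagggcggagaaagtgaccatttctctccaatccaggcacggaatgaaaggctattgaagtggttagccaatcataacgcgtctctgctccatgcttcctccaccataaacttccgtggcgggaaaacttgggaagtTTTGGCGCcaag
Rfc3 (chr5:151651159-151651458, minus strand): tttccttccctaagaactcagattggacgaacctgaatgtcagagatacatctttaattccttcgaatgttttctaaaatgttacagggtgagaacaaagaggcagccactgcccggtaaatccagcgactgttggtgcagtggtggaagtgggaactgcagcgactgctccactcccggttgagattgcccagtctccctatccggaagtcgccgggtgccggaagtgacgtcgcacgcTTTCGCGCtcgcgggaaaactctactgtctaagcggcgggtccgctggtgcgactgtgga
Orc1 (chr4:108579204-108579503, plus strand): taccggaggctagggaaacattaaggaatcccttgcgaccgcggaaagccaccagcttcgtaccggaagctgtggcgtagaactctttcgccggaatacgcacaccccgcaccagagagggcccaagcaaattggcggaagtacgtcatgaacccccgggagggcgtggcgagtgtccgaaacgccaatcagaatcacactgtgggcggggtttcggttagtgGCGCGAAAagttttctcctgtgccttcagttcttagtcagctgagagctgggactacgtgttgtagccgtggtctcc
Cdt1 (chr8:122567765-122568064, plus strand): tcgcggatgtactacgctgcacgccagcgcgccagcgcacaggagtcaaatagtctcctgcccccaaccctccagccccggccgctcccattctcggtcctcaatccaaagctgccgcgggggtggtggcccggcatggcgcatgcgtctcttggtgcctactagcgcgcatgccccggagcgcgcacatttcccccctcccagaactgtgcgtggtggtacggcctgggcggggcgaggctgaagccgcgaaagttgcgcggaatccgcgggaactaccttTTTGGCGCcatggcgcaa
In Mcm5 and Mcm6 matches on the 2 strands overlap, at -153 and -149 in Mcm5 and at -110 and -106 in Mcm6, where positions count from the start site and the base before it is -1. Mcm6 has another match at -47.

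Among the origin recognition genes, 2 of 3 rose. Orc6, which encodes the smallest and least tightly bound ORC subunit and lies on chromosome 8, 85299632 to 85308278 (GRCm38), had 51.05, 85.3, 41.4, 86.1 and 79.5 CPM in IL-33 replicates 1 to 5, against 35.8, 23.2, 27.6 and 9.07 CPM in PBS replicates 1 to 4. All IL-33 libraries were above all PBS libraries, a log2 change of 1.52 ± 0.38 (SE, with an adjusted p of 0.018). Orc2, a core subunit, rose by 0.90 log2 units (adjusted p = 0.025). Orc1, an ATP-binding subunit that recruits Cdc6, had 5.19, 7.96, 5.44, 6.96 and 5.46 CPM in IL-33 replicates 1 to 5, against 1.47, 12.3, 5.17 and 3.05 CPM in PBS replicates 1 to 4. The groups of Orc1 overlapped, with PBS replicate 2 the highest library of all, and the log2 change was 0.17 ± 0.55 (SE, with an adjusted p of 0.85). Neither was called with library size as the only scaling (adjusted p = 0.066 for Orc6 and 0.13 for Orc2). Orc6 was not called without PBS replicate 2 (adjusted p = 0.052), and Orc2 not when PBS replicate 2, PBS replicate 3, IL-33 replicate 3 or IL-33 replicate 4 was absent from the fit (adjusted p 0.051 to 0.057). Of Orc2's exon bases, 29.8% lie opposite Nif3l1, and counting is not stated to use strand.

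Of the licensing genes, Cdc6 and Gmnn rose and Cdt1 did not pass the test. Gmnn, the inhibitor (chromosome 13, 24751845 to 24761923), had 55.5, 64.4, 39.6, 59.4 and 58.5 CPM in IL-33 replicates 1 to 5, against 6.96, 6.45, 7.30 and 19.7 CPM in PBS replicates 1 to 4. The lowest IL-33 library had 39.6 CPM, above the highest PBS library, and the log2 change was 2.47 ± 0.37 (SE, with an adjusted p of 0.0014). Cdc6, an ATPase of helicase loading, had 34.03, 61.3, 36.5, 30.1 and 39.5 CPM in IL-33 replicates 1 to 5, against 14.1, 1.75, 2.43 and 7.63 CPM in PBS replicates 1 to 4. Its log2 change of 2.63 ± 0.59 (SE, with an adjusted p of 0.01) became 3.39 without PBS replicate 1, the PBS library with most Cdc6. Cdt1, the loading factor that geminin binds, had 40.4, 74.3, 30.4, 51.3 and 36.1 CPM in IL-33 replicates 1 to 5, against 32.6, 38.9, 16.5 and 36.8 CPM in PBS replicates 1 to 4. These groups overlapped, and the log2 change was 0.58 ± 0.32 (SE, with an adjusted p of 0.22). Within a library the log2 ratio of Cdt1 to Gmnn averaged -0.30 ± 0.33 in IL-33 libraries (SD, n = 5) and 1.67 ± 0.78 in PBS libraries (SD, n = 4). The ratio was thus lower in every IL-33 library than in any PBS library, by 1.97 log2 units in the mean. The difference, IL-33 minus PBS, was -1.97 (exact two-sided permutation test, p = 0.016, or 0.048 after adjustment over 15 pairs). That p is the smallest that 5 against 4 libraries can give. Gmnn and Cdt1 are the genes of smallest and largest adjusted p in their role, so the ratio describes the same contrast again.

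All 6 genes of the helicase, Mcm2 to Mcm7, rose, by 1.27 to 2.49 on the log2 scale with a median of 1.78. Mcm5, the subunit that with Mcm2 forms the gate of the ring (chromosome 8, 75109569 to 75128439), had 139, 232, 146, 175 and 197 CPM in IL-33 replicates 1 to 5, against 22.4, 34.8, 35.01 and 34.4 CPM in PBS replicates 1 to 4. The change of 2.49 ± 0.21 (SE, with an adjusted p of 8.7e-05) had the smallest adjusted p of the 42 genes. Mcm3 had 102, 241, 153, 206 and 184 CPM in IL-33 replicates 1 to 5, against 64.2, 44.000, 60.2 and 25.6 CPM in PBS replicates 1 to 4. Its log2 change was 1.87 ± 0.32 (SE, with an adjusted p of 0.0028). Mcm4, part of the catalytic core with Mcm6 and Mcm7, had 72.3, 115, 85.9, 94.5 and 97.9 CPM in IL-33 replicates 1 to 5, against 55.5, 44.4, 25.6 and 28.9 CPM in PBS replicates 1 to 4. Here the groups came closer, yet still did not overlap, and the log2 change was 1.27 ± 0.25 (SE, with an adjusted p of 0.0052). Mcm7 rose by 2.30 (adjusted p = 0.0018), Mcm6 by 1.69 (adjusted p = 0.0004) and Mcm2 by 1.59 (adjusted p = 0.005). Each of the 6 was called with each library left out in turn. Although the subunits form a ring with equal parts, their levels per length differed, from 32.7 ± 11.1 TPM, counts per exon length scaled to a common total, for Mcm2 to 100.04 ± 32.3 TPM for Mcm3 in IL-33 libraries (SD, n = 5), and from 9.78 ± 1.44 TPM for Mcm2 to 32.1 ± 14.6 TPM for Mcm6 in PBS libraries (SD, n = 4). These ends hold for union exon length. With the length of the longest transcript the lowest and highest means were those of Mcm4 at 41.1 TPM and Mcm3 at 92.7 TPM in IL-33 libraries, and of Mcm7 at 14.4 TPM and Mcm3 at 28.0 TPM in PBS libraries.

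**Figure D3:**
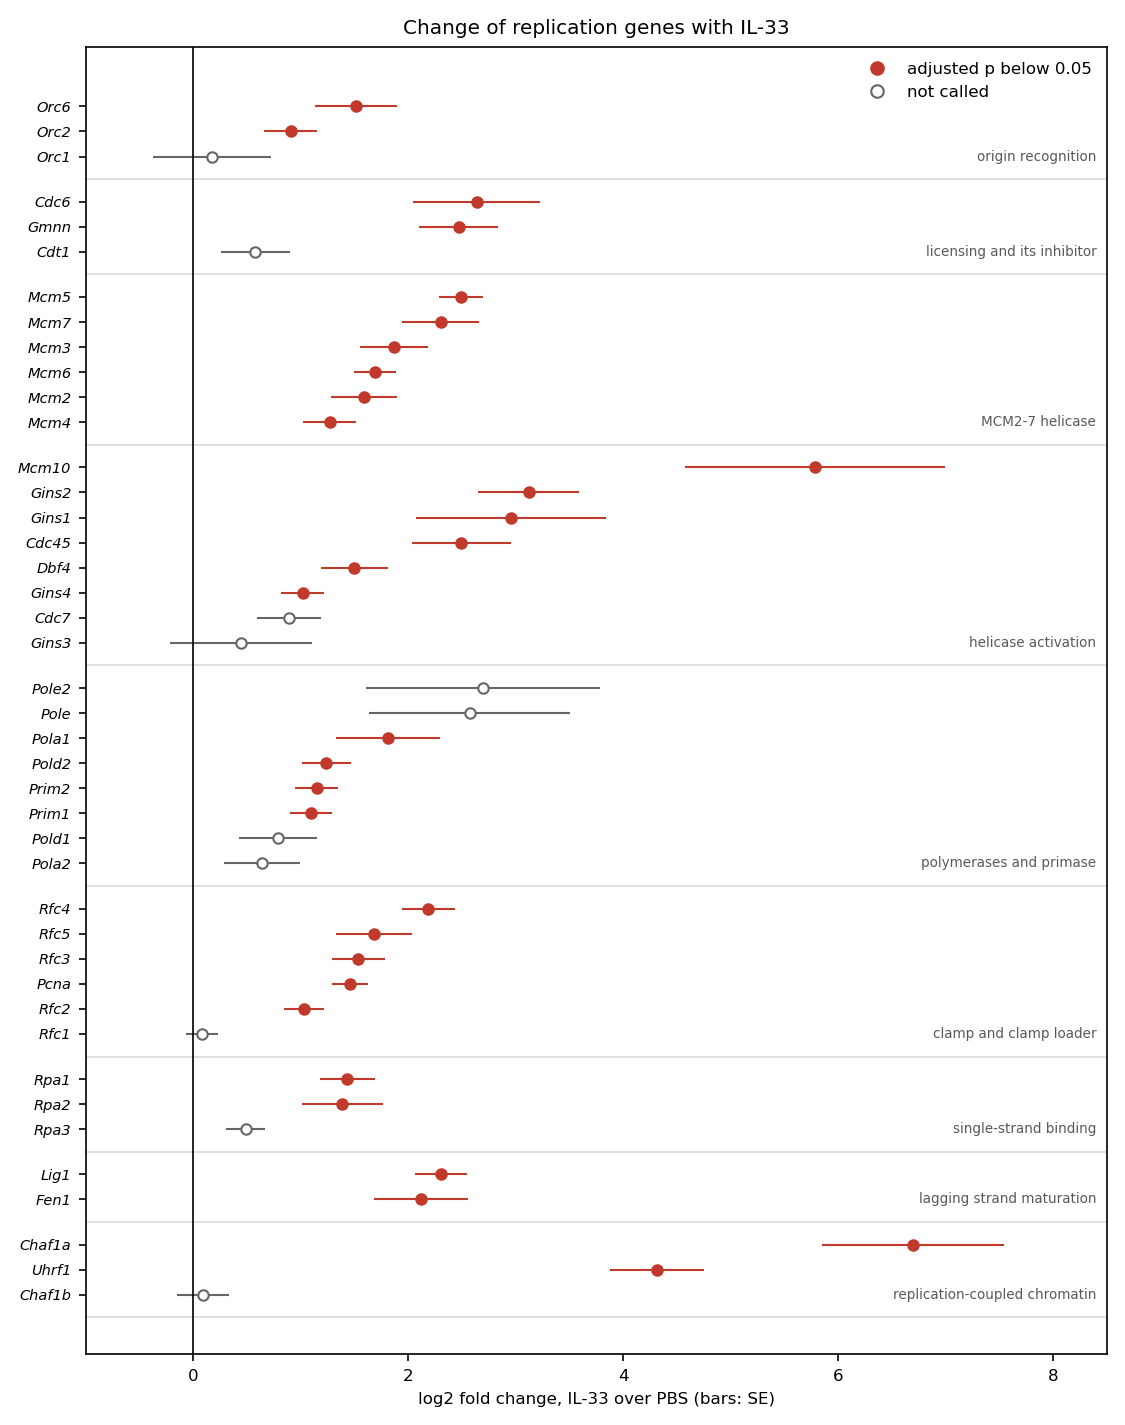
Log2 fold change of each replication gene, IL-33 over PBS, with its SE from the edgeR fit, grouped by role and sorted within a role. Filled circles mark the 31 genes with an adjusted p below 0.05 and open circles the 11 others. The 6 Mcm2 to Mcm7 points lie between 1.27 and 2.49, while Chaf1a, Mcm10 and Uhrf1 lie farthest right.

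Of the 8 genes that switch the helicase on, 6 rose. Gins2, a GINS subunit (chromosome 8, 120578633 to 120589304), had 54.9, 89.5, 45.01, 62.3 and 63.6 CPM in IL-33 replicates 1 to 5, against 6.14, 2.35, 6.28 and 14.5 CPM in PBS replicates 1 to 4, a log2 change of 3.12 ± 0.47 (SE, with an adjusted p of 0.0015). Gins4 had 45.7, 54.2, 44.5, 64.1 and 58.5 CPM in IL-33 replicates 1 to 5, against 31.2, 18.1, 25.8 and 30.5 CPM in PBS replicates 1 to 4, a log2 change of 1.02 ± 0.20 (SE, with an adjusted p of 0.0056). For both genes every IL-33 library was above every PBS library. Gins1 rose by 2.96 (adjusted p = 0.035), a call that ended when any 1 library was left out, save PBS replicate 2, PBS replicate 4 and IL-33 replicate 1 (adjusted p 0.0503 to 0.0804), and with library size as the only scaling (adjusted p = 0.062). Gins3, the remaining subunit, had 7.24, 18.1, 15.4, 11.96 and 6.88 CPM in IL-33 replicates 1 to 5, against 7.16, 0.784, 16.01 and 11.2 CPM in PBS replicates 1 to 4. Its groups overlapped widely, and the log2 change was 0.44 ± 0.66 (SE, with an adjusted p of 0.66). Cdc45, which joins GINS and the Mcm2 to Mcm7 ring in the active helicase, rose by 2.49 (adjusted p = 0.0041). Mcm10, a scaffold of helicase activation that was given in full after its values were seen, had 26.2, 26.4, 7.53, 32.5 and 18.8 CPM in IL-33 replicates 1 to 5, against 0, 0, 1.47 and 0 CPM in PBS replicates 1 to 4. All of its 29 PBS counts lay in PBS replicate 3, and the log2 change of 5.78 ± 1.21 (SE, with an adjusted p of 0.0073) became 11.68 without that library, where no PBS count remains and a fitted value sets no bound. Dbf4, the activating subunit of the Cdc7 kinase, rose by 1.497 (adjusted p = 0.0073). Cdc7 itself had 15.1, 17.6, 11.8, 8.10 and 17.9 CPM in IL-33 replicates 1 to 5, against 8.58, 7.96, 8.56 and 5.25 CPM in PBS replicates 1 to 4. The lowest IL-33 library, replicate 4, lay within the PBS range, and the log2 change of 0.89 ± 0.30 (SE, with an adjusted p of 0.053) passed the test without that library (adjusted p = 0.028) and with DESeq2 (adjusted p = 0.038). Of Gins2's exon bases, 67.3% lie opposite Gse1, which averaged 4.16 CPM in IL-33 and 3.49 CPM in PBS libraries.

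Of the 8 polymerase and primase genes, 4 rose. Prim2, the large primase subunit (chromosome 1, 33453810 to 33669795), had 31.4, 50.5, 32.2, 39.9 and 48.04 CPM in IL-33 replicates 1 to 5, against 17.5, 21.3, 15.8 and 18.4 CPM in PBS replicates 1 to 4, a log2 change of 1.15 ± 0.20 (SE, with an adjusted p of 0.0031). Prim1, the catalytic primase subunit, rose by 1.10 (adjusted p = 0.0032). Pold2, an accessory subunit of the lagging strand polymerase delta, had 109.9, 171, 85.4, 122 and 132 CPM in IL-33 replicates 1 to 5, against 43.7, 42.4, 71.9 and 52.1 CPM in PBS replicates 1 to 4, a log2 change of 1.24 ± 0.23 (SE, with an adjusted p of 0.0041). In none of these genes did the groups overlap. Pola1, the catalytic subunit of polymerase alpha, rose by 1.81 (adjusted p = 0.023), which did not pass when PBS replicate 1 was left out (adjusted p = 0.061) or when IL-33 replicate 4 was (adjusted p = 0.054). Its partner Pola2 had 31.7, 60.97, 43.3, 36.8 and 38.9 CPM in IL-33 replicates 1 to 5, against 18.4, 18.9, 19.2 and 52.7 CPM in PBS replicates 1 to 4. PBS replicate 4 lay inside the IL-33 range and the other PBS libraries below it, and the log2 change of 0.64 ± 0.36 (SE, with an adjusted p of 0.22) became 1.16 without that library (adjusted p = 0.0086). In TPM, which use no TMM factor, Pola2 was at 7.23 to 15.4 in IL-33 and 5.20 to 6.30 in PBS libraries. Acinar RNA lowers the TPM of PBS replicate 4. Pold1, the catalytic subunit of polymerase delta, had 39.5, 66.6, 27.2, 45.97 and 44.2 CPM in IL-33 replicates 1 to 5, against 27.5, 13.3, 19.1 and 43.8 CPM in PBS replicates 1 to 4. Its log2 change of 0.79 ± 0.36 (SE, with an adjusted p of 0.14) likewise became 1.16 without PBS replicate 4 (adjusted p = 0.035). Pole and Pole2 encode the catalytic and an accessory subunit of polymerase epsilon, which copies the leading strand. Pole had 23.98, 43.7, 7.77, 22.2 and 35.3 CPM in IL-33 replicates 1 to 5, against 8.53, 0, 4.81 and 4.48 CPM in PBS replicates 1 to 4, a log2 change of 2.57 ± 0.93 (SE, with an adjusted p of 0.071). Pole2 had 5.30, 7.66, 7.44, 11.5 and 12.3 CPM in IL-33 replicates 1 to 5, against 0.965, 4.34, 0.101 and 0 CPM in PBS replicates 1 to 4, a log2 change of 2.69 ± 1.09 (SE, with an adjusted p of 0.1), and its groups did not overlap. These changes were large but so was the spread among PBS libraries, and without PBS replicate 2 both genes passed the test, with log2 changes of 2.15 (adjusted p = 0.029) and 4.53 (adjusted p = 0.018).

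Pcna and 4 of the 5 clamp loader genes rose. Pcna, the sliding clamp that holds polymerases to DNA (chromosome 2, 132249162 to 132253314), had 194, 206, 132, 239 and 209 CPM in IL-33 replicates 1 to 5, against 79.6, 70.1, 63.1 and 71.9 CPM in PBS replicates 1 to 4. The log2 change was 1.46 ± 0.17 (SE, with an adjusted p of 0.00038). A Pcna pseudogene, Pcna-ps2, had 9052 counts over all libraries, and how reads that match both were assigned is not given in the sources used here. Rfc4, a small subunit of the loader, had 61.2, 70.2, 46.97, 93.2 and 72.8 CPM in IL-33 replicates 1 to 5, against 10.2, 14.5, 18.2 and 17.7 CPM in PBS replicates 1 to 4. It rose by 2.19 ± 0.25 (SE, with an adjusted p of 0.00035) on the log2 scale, with all IL-33 libraries above all PBS libraries. Rfc5 rose by 1.68 (adjusted p = 0.0075), Rfc3 by 1.54 (adjusted p = 0.0023) and Rfc2 by 1.03 (adjusted p = 0.0034). Rfc2 was not called with library size as the only scaling (adjusted p = 0.054), and 15.1% of its exon bases lie opposite Lat2, which averaged 62.2 CPM in IL-33 and 29.9 CPM in PBS libraries. Rfc1, the large subunit of the loader, had 144, 128, 88.4, 119 and 134 CPM in IL-33 replicates 1 to 5, against 106, 129, 123 and 104 CPM in PBS replicates 1 to 4. The groups of Rfc1 overlapped and the log2 change was 0.08 ± 0.15 (SE, with an adjusted p of 0.72). Within a library the log2 ratio of Rfc4 to Rfc1 averaged -0.84 ± 0.32 in IL-33 libraries (SD, n = 5) and -2.92 ± 0.36 in PBS libraries (SD, n = 4), a difference of 2.08 with no overlap. These are the genes of smallest and largest adjusted p in their role, so the ratio describes the same contrast again.

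Replication protein A (RPA) covers single-stranded DNA at the fork. Rpa1, its large subunit (chromosome 11, 75298166 to 75348324), had 125, 202, 186, 165 and 209 CPM in IL-33 replicates 1 to 5, against 77.3, 41.1, 93.6 and 50.4 CPM in PBS replicates 1 to 4, a log2 change of 1.43 ± 0.26 (SE, with an adjusted p of 0.0037). Rpa2, the subunit phosphorylated in the cell cycle and after damage, rose by 1.39 (adjusted p = 0.023), but not when PBS replicate 2, PBS replicate 4 or IL-33 replicate 2 was absent from the fit (adjusted p 0.054 to 0.057) or with library size as the only scaling (adjusted p = 0.053). Rpa3, the small subunit, had 69.8, 68.6, 53.2, 71.9 and 78.8 CPM in IL-33 replicates 1 to 5, against 63.9, 44.6, 49.2 and 37.7 CPM in PBS replicates 1 to 4. The groups of Rpa3 overlapped in part, and the log2 change of 0.49 ± 0.18 (SE, with an adjusted p of 0.074) passed the test without PBS replicate 1 (adjusted p = 0.029) or IL-33 replicate 3 (adjusted p = 0.046). Rpa2 was higher in every IL-33 library than in any PBS library, and Rpa3 was not.

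Both genes that finish the lagging strand rose. Lig1, the ligase that seals Okazaki fragments (chromosome 7, 13277283 to 13311433), had 214, 384, 192, 299 and 299.6 CPM in IL-33 replicates 1 to 5, against 48.4, 42.9, 72.2 and 61.7 CPM in PBS replicates 1 to 4, a log2 change of 2.30 ± 0.24 (SE, with an adjusted p of 0.00027). In CPM it was the highest of the 42 genes in every IL-33 library but replicate 3, where Mcm6 was higher. Fen1, the flap nuclease that trims those fragments, had 4.92, 8.61, 6.93, 4.76 and 7.85 CPM in IL-33 replicates 1 to 5, against 1.12, 1.57, 0.963 and 2.48 CPM in PBS replicates 1 to 4, a log2 change of 2.12 ± 0.44 (SE, with an adjusted p of 0.0071). No overlap between groups was seen for either gene. Of Fen1's exon bases 78.8% lie opposite the antisense gene Gm10143, which averaged 1.95 CPM in IL-33 and 0.108 CPM in PBS libraries, and how reads in shared bases were counted is not given in the sources used here.

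Among the genes of newly copied chromatin, 2 of 3 rose and by more than most. Uhrf1, which reads half-methylated DNA and brings the maintenance methyltransferase to it (chromosome 17, 56303321 to 56323486), had 45.2, 102, 32.5, 50.9 and 95.9 CPM in IL-33 replicates 1 to 5, against 3.10, 4.64, 3.19 and 2.10 CPM in PBS replicates 1 to 4, a log2 change of 4.31 ± 0.44 (SE, with an adjusted p of 0.00021). Chaf1a, the large subunit of chromatin assembly factor CAF-1, given in full after its values were seen, had 8.29, 21.7, 9.44, 7.91 and 14.7 CPM in IL-33 replicates 1 to 5, against 0.152, 0, 0.253 and 0 CPM in PBS replicates 1 to 4. It had 8 counts in the PBS group in all, and its log2 change was 6.70 ± 0.85 (SE, with an adjusted p of 0.00062), or 7.52 without PBS replicate 3. Chaf1b, the partner subunit in CAF-1, had 35.8, 43.99, 27.2, 40.6 and 38.3 CPM in IL-33 replicates 1 to 5, against 52.9, 28.3, 24.3 and 34.3 CPM in PBS replicates 1 to 4. The groups of Chaf1b overlapped, with PBS replicate 1 the highest of all libraries, and the log2 change was 0.09 ± 0.24 (SE, with an adjusted p of 0.82). The log2 ratio of Chaf1a to Chaf1b averaged -1.63 ± 0.53 in IL-33 libraries (SD, n = 5) and -5.84 ± 0.57 in PBS libraries (SD, n = 4), with no overlap. Because Chaf1a was at or near 0 in PBS libraries, the pseudocount sets the size of the difference, which was 4.21 with 0.5 CPM, 5.93 with 0.1 CPM and 2.57 with 2 CPM. Of Chaf1a's exon bases 52.5% lie opposite Ubxn6, which averaged 39.0 CPM in IL-33 and 37.7 CPM in PBS libraries.

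Ratios within a library do not depend on the scaling between libraries, except for genes near 0, where the pseudocount of 0.5 CPM acts. In all, 15 pairs of genes were compared, of the same role above save Mcm10 to Mcm2, which joins genes of different roles. The pairs were chosen with earlier results known, so a pass is not independent evidence of an unequal change. Differences passed for 5 pairs, each at the smallest p that 5 against 4 libraries can give (exact two-sided permutation test, p = 0.016, or 0.048 after adjustment). The adjusted value depends on how many pairs reach that p, and with fewer than 5 none would have passed. The 5 were the 3 pairs above, Cdc6 to Cdt1 and Mcm10 to Mcm2. The log2 ratio of Cdc6 to Cdt1 was -0.18 ± 0.40 in IL-33 libraries (SD, n = 5) and -2.51 ± 1.23 in PBS libraries (SD, n = 4), a difference of 2.33. For Mcm10 to Mcm2 the PBS ratio is set by the pseudocount, as Mcm10 was at 0 in all PBS libraries but replicate 3. Its difference was 3.27 with a pseudocount of 0.5 CPM, 5.05 with 0.1 CPM and 1.73 with 2 CPM, and the groups did not overlap. The remaining 10 pairs did not pass. The primase pair Prim1 to Prim2 was at 0.87 ± 0.37 in IL-33 libraries (SD, n = 5) and 0.92 ± 0.12 in PBS libraries (SD, n = 4), which is a difference of -0.05 (exact permutation test, adjusted p = 0.92). Pola1 to Pola2 differed by 1.21 (exact permutation test, p = 0.032, adjusted p = 0.079), Pold1 to Pold2 by -0.37 (exact permutation test, adjusted p = 0.45) and Dbf4 to Cdc7 by 0.69 (exact permutation test, adjusted p = 0.20). With 1 library left out no pair passed (exact permutation test, lowest adjusted p = 0.061). The smallest p possible is larger there, so the lack of a pass decides little.

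**Figure D4:**
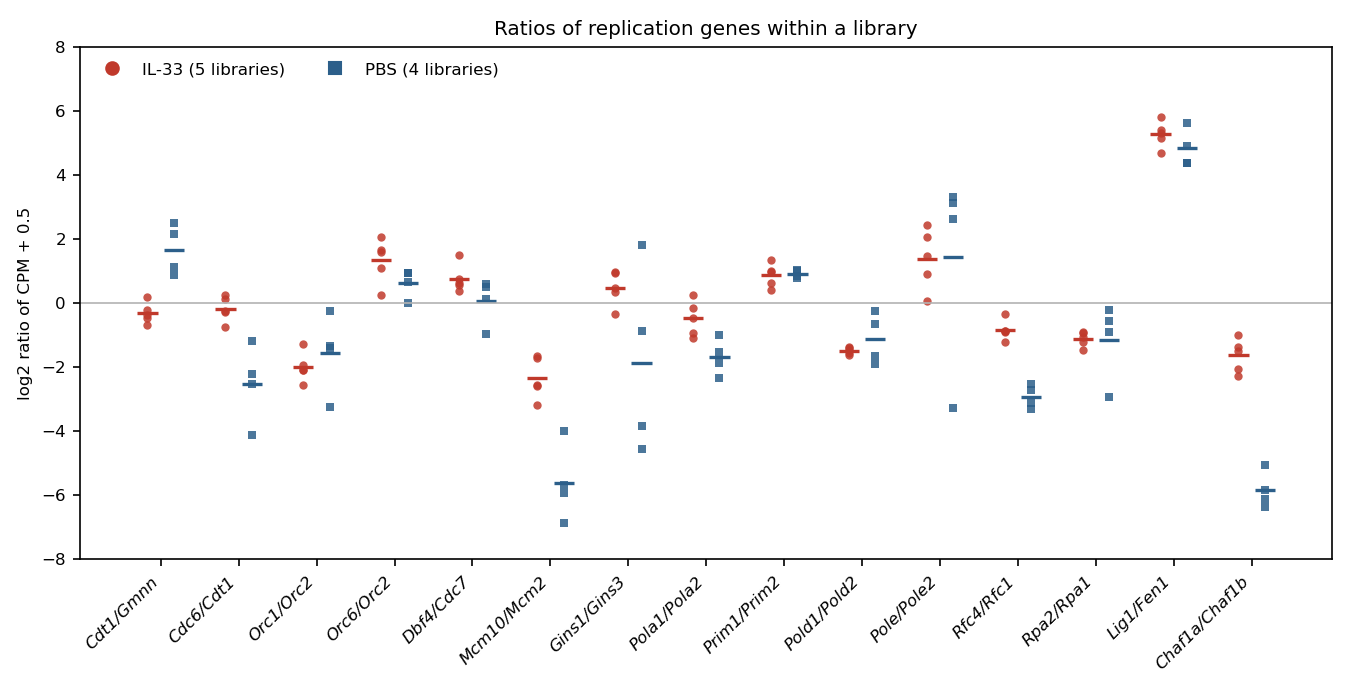
Log2 ratio of CPM plus 0.5 of 15 pairs of replication genes within each library (vertical axis), IL-33 libraries as circles left of PBS libraries as squares, with bars at the group means. Circles and squares do not mix for Cdt1/Gmnn, Cdc6/Cdt1, Mcm10/Mcm2, Rfc4/Rfc1 and Chaf1a/Chaf1b.

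Levels can be compared between genes only per length. In IL-33 libraries the highest mean levels were those of Pcna with 171 ± 38.004 TPM, Pold2 with 138 ± 39.1 TPM, Lig1 with 137 ± 42.3 TPM and Rpa3 with 127 ± 24.4 TPM (SD, n = 5). Within these 4, each differed from the next by less than its SD. With the length of the longest transcript their order was Pcna, Rpa3, Lig1 and Pold2. The lowest were those of Chaf1a with 2.98 ± 1.499 TPM and Orc1 with 3.74 ± 0.753 TPM (SD, n = 5). With the length of the longest transcript, Orc1 at 3.24 TPM was below Chaf1a at 3.57 TPM. Chaf1a shares 52.5% of its exon bases with Ubxn6, and how reads in shared bases were counted is not given. In PBS libraries the order began with Rpa3 at 96.3 ± 48.3 TPM, Pcna at 63.8 ± 26.5 TPM, and Pold2 at 58.4 ± 24.4 TPM (SD, n = 4), then Rfc1 with 16.4 to 59.5 TPM, and ended with Mcm10 and Chaf1a. By union exon length, Rfc1 ranked 17 in IL-33 libraries, where it was at 42.7 ± 8.02 TPM (SD, n = 5), and 4 in PBS libraries, while Gmnn ranked 10 in IL-33 and 20 in PBS libraries. TPM are shares of all transcripts, so the acinar RNA of PBS replicate 4 lowers its values.

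**Figure D5:**
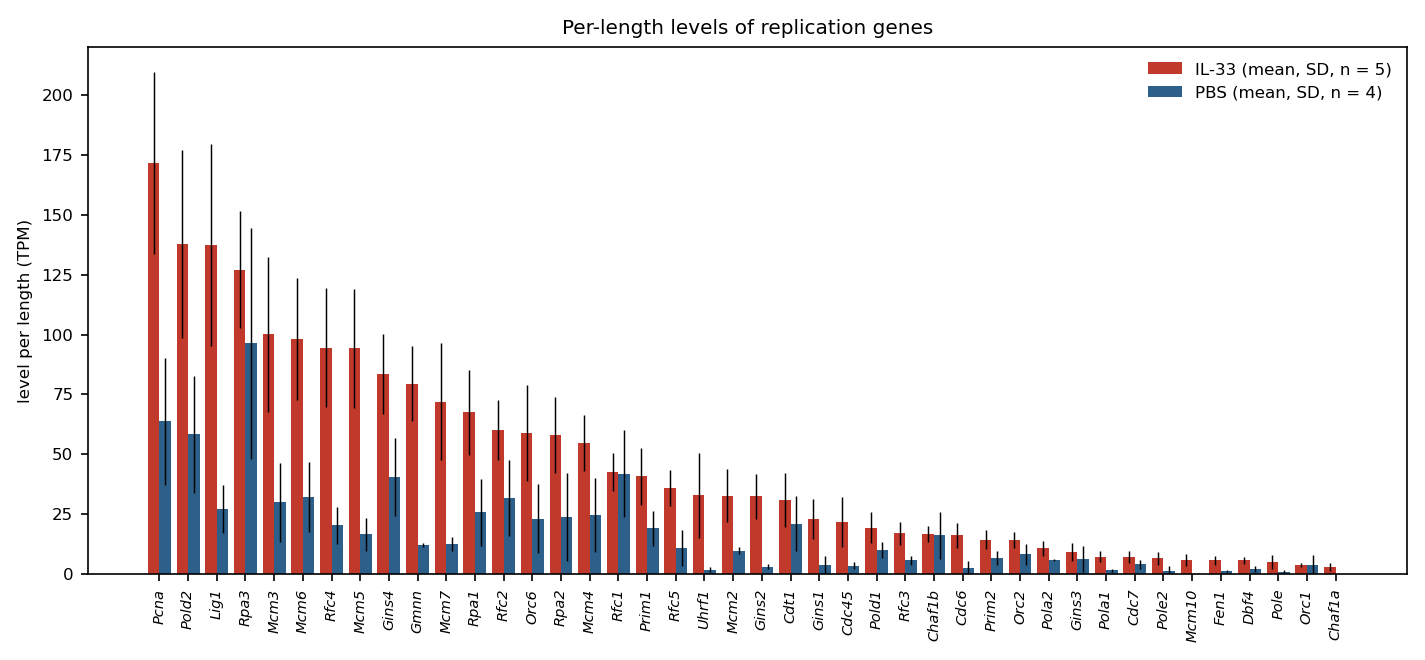
Mean level per length in TPM (vertical axis from 0) of the 42 replication genes, sorted by their IL-33 mean, with IL-33 bars left of PBS bars and error bars for the SD over 5 and 4 libraries. Pcna leads with IL-33 and Rpa3 with PBS, and the paired bars of Rfc1 and Chaf1b are nearly level.

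Further genes of replication were taken from a list of 39, all measured. Of these 14 rose and 1 fell, where 13.7% of genes tested rose and 11.6% fell. Their median log2 change was 0.81, against 1.53 for the 42 genes. The smallest adjusted p were those of Top2a, a topoisomerase that untangles DNA in S phase and mitosis, up by 3.67 (adjusted p = 0.00011), Dnmt1, the maintenance methyltransferase that Uhrf1 recruits, up by 1.65 (adjusted p = 0.00021), and Pclaf, a small protein that binds PCNA, up by 5.22 (adjusted p = 0.00023). The gene that fell was Orc4, a core ORC subunit, with 65.7, 42.98, 69.2, 60.6 and 48.3 CPM in IL-33 replicates 1 to 5, against 204, 168, 96.2 and 79.3 CPM in PBS replicates 1 to 4, a log2 change of -1.25 ± 0.28 (SE, with an adjusted p of 0.01). All IL-33 libraries were below all PBS libraries for Orc4, while Orc2 and Orc6 were above. Orc3 and Orc5 did not pass the test, with log2 changes of 0.61 and 0.06, and were named after their values were seen. Of 22 genes of mitosis, for comparison, 20 rose and 0 fell, beside the same 13.7% and 11.6%, with a median log2 change of 4.25. All of these genes were compared over the same libraries, and the difference between the medians was not tested.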

How the data were processed

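Bulk RNA-seq counts per gene from 9 libraries, 5 of IL-33-treated and 4 of PBS-treated mice, were analysed as the authors deposited them, as raw counts. The labels' protocols give a low-input NEBNext kit with 5 to 15 ng of RNA and paired reads of 150 nt. Per the submitters' processing notes, the tools included STAR 2.7.7a, Salmon 1.6.0 and DESeq2 beside Trimmomatic 0.39, FastQC 0.11.9 and Picard, and the build was GRCm38.p6; no order or settings are given there. The authors' normalized table was not used. Of 20732 gene identifiers, 20571 (99.2%) have a symbol.

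Genes were kept by edgeR's filter with a minimum count of 10, scaled by TMM and tested with edgeR's quasi-likelihood F-test (edgeR 4.0.16, R 4.3.3), two-sided, with Benjamini-Hochberg adjustment over 14405 genes and a threshold of 0.05. Log2 changes are IL-33 over PBS. The biological coefficient of variation was 0.56. Ratios within a library used CPM plus 0.5 and an exact permutation test over 126 splits (SciPy 1.17.1), two-sided, adjusted over 15 pairs. TPM were computed from counts and union exon lengths of GENCODE M21. Promoter windows of 300 bases and their coordinates are those of RefSeq, GRCm38.p6.

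On simulated data the edgeR step, run on 13936 genes, found 16.3% of the 98 genes given a 2-fold change and 49.0% of the 96 given a 4-fold one and made 3 false calls. A gene that does not pass may thus still have changed. No 2 libraries of a group agreed within sampling noise, as the lowest chi-square per degree of freedom among 16 pairs was 52.6.

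Genes, lists and pairs were chosen with earlier results of these data known. Values per library are given for the gene of each role with the smallest adjusted p, the largest adjusted p and the highest level, and for every gene that did not pass the test. Of the further replication genes, at most 3 that passed the test in each direction are named, by smallest adjusted p. Alternatives were other scalings, filters, tests and thresholds, a replicate block, a correction for length and GC content, libraries left out, other pseudocounts and another gene length, with limma 3.58.1 and DESeq2 1.42.0 as the other tests. Some marker genes are not reported here.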

Additional observations from a re-analysis of the deposited data

Results flagged for a closer look

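Among 84 groups of libraries (42 genes in each of 2 groups), 5 held a library far from the others of its group, by a criterion that chance meets in about 1 of 20 groups. Gmnn was at 19.7 CPM in PBS replicate 4, against 6.45 to 7.30 CPM in the other PBS libraries (gap over range 0.936). Pola2 was at 52.7 CPM in the same library and at 18.4 to 19.2 CPM in the others (gap over range 0.978). The TMM factor of PBS replicate 4 was 0.532. In TPM, which use no TMM factor, the PBS libraries ran from 11.2 to 12.7 for Gmnn and from 5.20 to 6.30 for Pola2. Acinar RNA lowers the TPM of PBS replicate 4, and the part of scaling in these 2 values was not tested. Mcm5 was low in PBS replicate 1, at 22.4 CPM, against 34.4 to 35.0 CPM in the other PBS libraries (gap over range 0.955). Mcm10 had 1.47 CPM in PBS replicate 3 and 0 in the others. Rfc2 was at 237 CPM in IL-33 replicate 2, against 157 to 179 CPM in the other IL-33 libraries (gap over range 0.723).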

How the results depend on the processing

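Over 19 alternatives no gene of the 42 was called lower, and 17 of the 31 called genes were called under every alternative at the threshold of 0.05. The number called higher was 31 with RLE scaling and without the filter, 28 with library size as the only scaling, which moved the median of all genes by 0.13, 32 with a filter at 5 CPM, 34 with DESeq2, 33 with limma voom, 33 after the correction for length and GC content, 25 at a threshold of 0.01 and 29 to 32 with 1 library left out. Without IL-33 replicates 1, 2 and 3 it was 19, with fewer libraries. With the replicate number as a block it was 21. Of genes tested, 13.7% were called higher in the main fit, 12.6% with RLE scaling, 8.18% without the filter and 9.25% with library size alone. The filter at 5 CPM gave 16.4%, DESeq2 15.5%, limma voom 15.3% and the length and GC correction 12.6%. At the threshold of 0.01 it was 7.07%. The share was 9.94% to 13.2% with 1 library left out, 4.75% without IL-33 replicates 1, 2 and 3 and 5.49% with the block. Same-numbered libraries did not deviate together (r from -0.04 to 0.07 over 4 pairs), and not every library correlated best with its own number, so that the numbers do not show pairing. Of 798 values of single genes, 729 kept their direction and side of the threshold, 49 lost a call, 17 gained one and 3 turned direction. With 1 library left out Orc1 ranged from -0.15 to 0.94 and Chaf1b from -0.050 to 0.36. Pairs called numbered 5 with all libraries and 0 with any 1 left out, where the smallest p is larger and the lowest adjusted p was 0.061. With pseudocounts of 0.1 and 2 CPM, 5 pairs passed. Ratios that turned direction with 1 library left out were Orc1/Orc2 (-0.99 to 0.020), Prim1/Prim2 (-0.17 to 0.066), Pole/Pole2 (-1.63 to 0.56) and Rpa2/Rpa1 (-0.55 to 0.35), and Pole/Pole2 was 0.38 with a pseudocount of 2 CPM. With the length of the longest transcript, 9 of the 10 genes of highest level in IL-33 libraries were the same. The cause of these changes was not tested.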
